A study of Danio rerio with 16 samples.

Results

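The effect of exemestane (EM) on the gonad transcriptome was compared between the sexes in adult zebrafish, that is, the change from control to EM in ovaries was set against the change from control to EM in testes. All 16 of the 16 libraries of the series entered the comparison, because it was defined by the design (sex, EM, and the product of both) and not by measured values. Each library came from the gonads of 1 fish of the AB strain, 4 months old, kept for 32 days at 0, 50, 100 or 200 μg/L EM dissolved in DMSO. With 2 fish for each sex and concentration, 2 control females, 2 control males, 6 EM-females and 6 EM-males were compared. The fish at 0 μg/L are labelled control and were taken as the solvent control of the study. Each treatment was kept in 1 tank shared by both sexes, so EM and the tank cannot be told apart, whereas both sexes of a treatment met the same water.

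EM is a steroidal inhibitor of aromatase, the enzyme that turns androgens into estrogens and that is encoded in the fish gonad by *cyp19a1a*. Follicle cells of the ovary are the main site of this conversion, and the estrogen they release makes the liver produce vitellogenins, the yolk precursors taken up by growing oocytes. In the testis the steroid-producing Leydig cells and the Sertoli cells that nurse the germ cells mark the somatic side of the organ. The enzyme that EM blocks is thus used differently by ovary and testis. The product term used below is the log2 EM effect in females minus the log2 EM effect in males. A positive term means that EM-females stood higher relative to their controls than EM-males did relative to theirs, and a negative term means the reverse. These libraries hold the RNA of whole gonads, in which fewer cells of a type and less RNA per cell cannot be told apart.

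The labelled organs matched their marker genes. The summed level of 7 ovary markers was 39184 to 48225 normalized counts (counts divided by the size factor of the library) in females and 256 to 641 in males. The 7 testis markers summed to 11104 to 30571 in males and to 742 to 1386 in females. The library with the fewest counted reads was control male replicate 1 with 4043394, and that with the most was EM50 female replicate 1 with 13821205. Testis libraries had 4043394 to 9674058 counted reads, the most in control male replicate 2. Ovary libraries had 8311132 to 13821205. Testis libraries differed in markers of another tissue: 3 exocrine pancreas markers summed to 71620 in control male replicate 1, to 11740 and 28370 in the EM200 males and to 24290 in EM50 male replicate 2, against 731 to 3964 in the other 4 males and 39.6 to 113.8 in females. These 4 libraries were also left out together, in a comparison chosen after seeing the data, which leaves 1 control male.

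Across 22106 genes, no gene passed an adjusted p of 0.05 for the product term (edgeR quasi-likelihood test, Benjamini-Hochberg adjustment), and the smallest adjusted p was 0.144. At an unadjusted p under 0.05 there were 803 genes with a positive term (3.63% of the genes tested) and 877 with a negative term (3.97%), together 7.60%. DESeq2 gave 50 positive and 59 negative calls at the adjusted threshold, 0.250% and 0.295% of the 19981 genes it adjusted, and limma-voom with quality weights gave 2 positive and 0 negative calls. All 109 of the DESeq2 calls were among the genes with an unadjusted edgeR p under 0.05. An exact two-sided permutation of control and EM within each sex had 784 assignments and a smallest p of 0.00128. It gave 0 genes at an adjusted p under 0.05 and 1852 genes (8.38%) at an unadjusted one. With so few assignments the adjusted threshold could hardly be passed: 94 genes had the smallest p, and the smallest adjusted p was 0.3. Shuffling within both sexes tests for no EM effect in either sex, not only for an equal effect in both. Single genes are therefore described below by their values in each fish. Folds are ratios of group means of normalized counts. Words such as higher and lower refer to these values, not to a product term past the threshold.

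Selecting genes on a large difference between the sexes favours effects of opposite sign by construction, so the signs are given as a description. Of the 1680 genes with an unadjusted p under 0.05, 1535 had EM effects of opposite sign, 77 had effects of the same sign that were larger in females and 68 had effects of the same sign that were larger in males. Only 72 of the 1680 had an EM effect with an unadjusted p under 0.05 in both sexes and of opposite signs. In 508 the EM effect had such a p in females only, in 675 in males only, in 1 in both with the same sign, and in 424 in neither. Over all genes tested, 5.07% had such a p in females and 8.50% in males. The separation of the fish was counted as well.

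All 6 EM-fish lay above or below both controls, in 1 sex only, in 4194 genes (19.0%). Of the 28 ways to assign control and EM to the fish of a sex, 1 puts all EM-fish above and 1 puts all below. Such separation thus also arises by chance in many genes. Of these, 1432 were higher (6.48%) and 1145 lower (5.18%) in EM-females only, and 1030 were higher (4.66%) and 587 lower (2.66%) in EM-males only. In both sexes at once, 63 genes were higher (0.285%) and 22 lower (0.0995%). In 62 genes (0.280%) EM-females lay above and EM-males below their controls, and in 79 genes (0.357%) the order was the reverse. Across the 11397 genes with a mean of at least 20 normalized counts in a group of each sex, the EM effects in females and in males had a Pearson r of -0.093 and a Spearman rho of -0.084. This is a description across genes, which share the libraries and are not independent. The median absolute EM effect over these genes was 0.25 on the log2 scale in females and 0.33 in males.

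**Figure D1:**
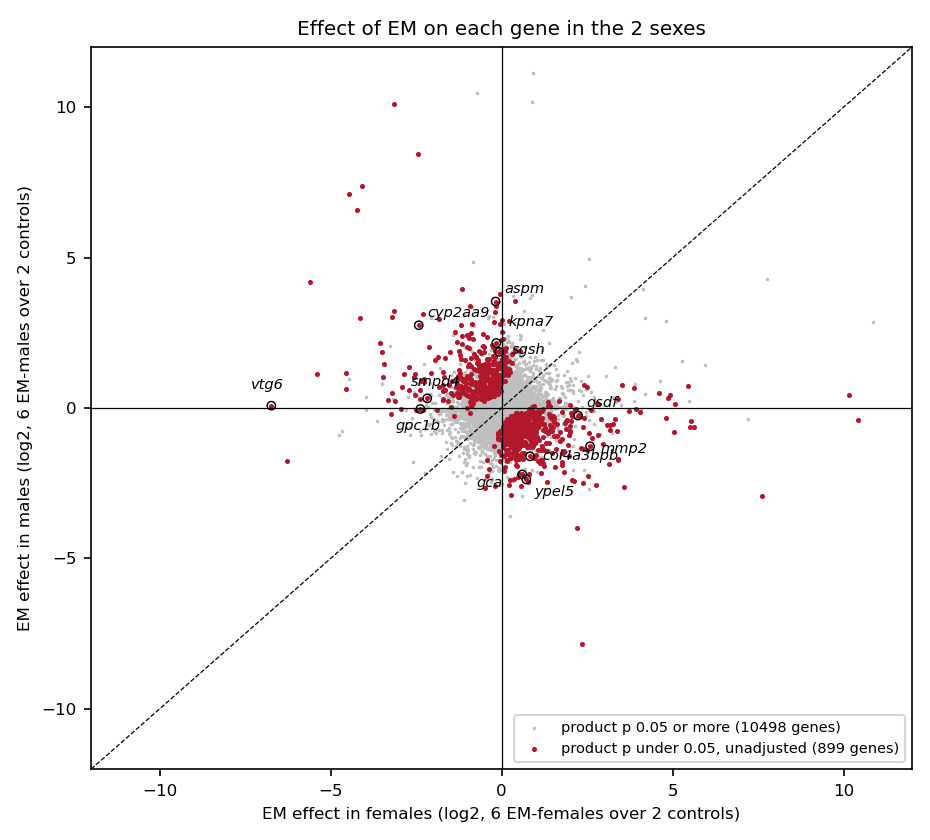
Each point is 1 of the 11397 genes with a mean of at least 20 normalized counts in both sexes, placed by its EM effect in females (x axis, log2) and in males (y axis, log2), with the 899 genes of unadjusted product p under 0.05 in red. The dashed line marks equal effects, and red points lie away from it, mainly to the upper left and lower right, as their selection on the difference favours. Circled points are the named genes.

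Among genes with a symbol whose fish separated in opposite directions, *mmp2* (ENSDARG00000017676) had the lowest product p. It encodes matrix metalloproteinase 2, a gelatinase that cuts basement membrane collagen. The control females had 5.58 and 5.95 normalized counts, and the EM-females had from 22.2 to 49.8 with a median of 34.7. The control males had 1297 and 544, and the EM-males had from 142 to 539 with a median of 419. No EM-fish overlapped the controls of its sex in either direction, and the 2 sexes moved towards each other. The level was 6.17-fold higher in EM-females and 2.43-fold lower in EM-males, giving a product term of 3.86 ± 0.70 (log2, SE; unadjusted p = 4.44e-05, adjusted p = 0.245). In males the highest EM-fish (539) nearly met the lower control (544), and the other control was the library with the highest sum of pancreas markers. Against control male replicate 2 alone, *mmp2* was 1.43-fold lower in EM-males, and without replicate 1 its product term was 3.25.

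The gene *cyp2aa9* (ENSDARG00000098890), a cytochrome P450 of a fish-specific subfamily, showed the reverse order. The control females had 70.9 and 56.9 normalized counts, and the EM-females had from 3.11 to 23.7 with a median of 8.79. The control males had 8.02 and 3.46, and the EM-males had from 14.5 to 64.8 with a median of 36.2. The level was 5.32-fold lower in EM-females and 6.25-fold higher in EM-males. The order of the sexes was thus reversed, with control females above control males and most EM-males above the EM-females. Both control males rested on few reads, and replicate 1 had too few for a fold of its own, so the fold in males is uncertain. The product term was -5.17 ± 1.12 (adjusted p = 0.279) and ranged from -5.64 to -4.66 when any single fish was left out.

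For *ypel5* (ENSDARG00000088929), a conserved zinc-binding protein that belongs to a ubiquitin ligase complex in mammals, most of the difference lay in the testis. The control males had 1043 and 1454 normalized counts, and the EM-males had from 126 to 365 with a median of 257, a 5.13-fold lower level. The control females had 133 and 118, and the EM-females had from 134 to 301 with a median of 209. The lowest EM-female thus stood next to the higher control, and the product term was 3.10 ± 0.66 (adjusted p = 0.279).

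The gene *col4a3bpb* (ENSDARG00000102372) encodes a ceramide transfer protein, which carries ceramide from the endoplasmic reticulum to the Golgi. The EM-females had from 324 to 525 normalized counts against 210 and 234 in their controls, a 1.80-fold higher level. The EM-males had from 33.5 to 80.3 against 115 and 191, a 2.95-fold lower level. Both changes were without overlap, and the product term was 2.43 ± 0.53 (adjusted p = 0.279). The tetraspanin gene *cd81a* had 8.77 and 34.8 in control females, 47.9 to 94.7 in EM-females, 1971 and 807 in control males and 592 to 786 in EM-males. The level of *cd81a* was 3.13-fold higher in EM-females (1.96-fold against control replicate 2 alone) and 1.91-fold lower in EM-males (1.11-fold against replicate 2 alone). The gap to the lower control male was small, and the product term of *cd81a* was 2.54 ± 0.57.

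The genes *ssr1*, *stt3a* and *eif3s10*, named because their fish separated, had the same order with smaller product terms. The translocon subunit gene *ssr1* was 1.35-fold higher in EM-females and 1.86-fold lower in EM-males. The gene *stt3a*, for the catalytic subunit of the oligosaccharyltransferase that attaches sugar chains to new proteins, was 1.46-fold higher and 1.52-fold lower. The translation initiation factor gene *eif3s10* was 1.45-fold higher and 1.49-fold lower, from 3145 and 2822 to between 3726 and 4943 normalized counts in females and from 2813 and 2233 to between 1204 and 2109 in males. Their product terms were 1.33 ± 0.32, 1.16 ± 0.29 and 1.11 ± 0.28, with adjusted p of 0.369, 0.41 and 0.398.

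**Figure D2:**
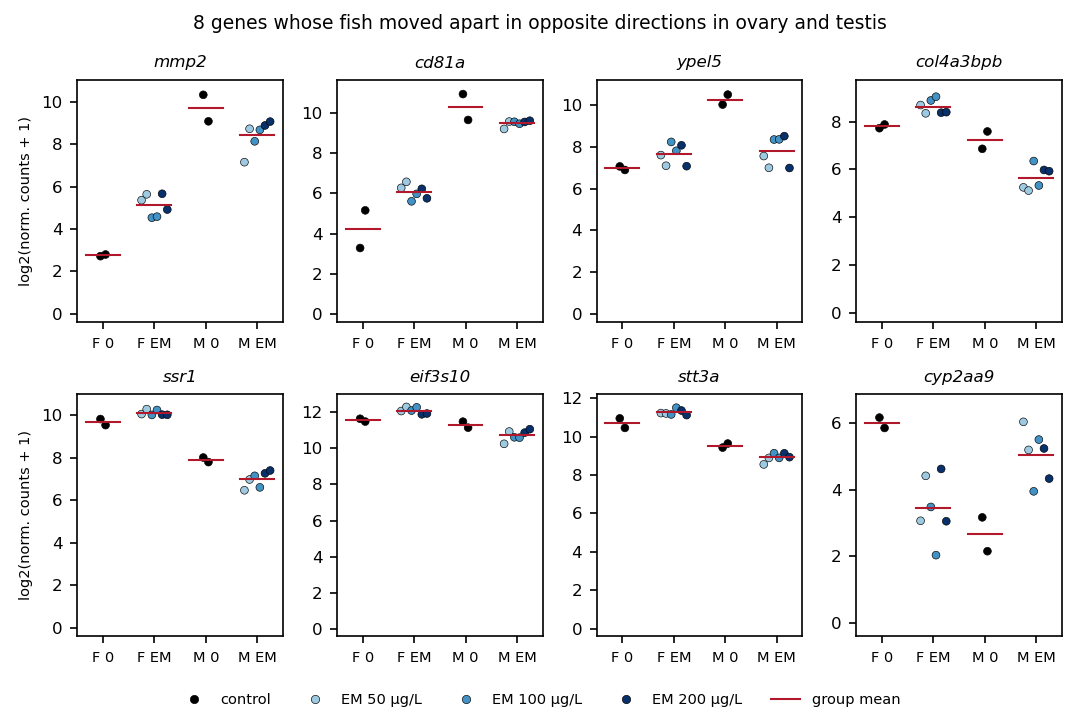
Normalized counts on a log2(value + 1) scale in each fish for 8 genes, with control females (F 0), EM-females (F EM), control males (M 0) and EM-males (M EM) along the x axis, colours for the EM concentration and red lines for group means. In 7 of the genes EM-females lie above and EM-males below their controls, and in *cyp2aa9* the order is reversed.

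A transcriptional corepressor gene, *CIR1*, followed the first order as well, with 51.8 and 39.9 normalized counts in control females, 69.2 to 141 in EM-females, 80.2 and 84.5 in control males and 4.26 to 38.2 in EM-males (product term 2.95 ± 0.78). The clone-named gene zgc:171967 was 1.92-fold higher in EM-females and 1.87-fold lower in EM-males (product term 1.89 ± 0.36, adjusted p = 0.266). The interferon-induced gene *ifit8* was at 0 in both control females and at 1.86 to 6.88 in EM-females, at least 1.64-fold higher against a floor of 3 counts per library. In males it went from 187 and 217 to between 24.9 and 119. The female side of *ifit8* thus rested on few reads.

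The reverse order was found in 4 more of the genes with the lowest product p. The gene *smyd1a* (ENSDARG00000009280), a methyltransferase of striated muscle, had 727 and 659 normalized counts in control males and 1789 to 4693 in EM-males, a 4.58-fold higher level, while females had 4.78 and 1.70 in controls and at most 1.59 under EM. Its relative *smyd1b* went from 40.1 and 24.9 to between 117 and 304 in males. The summed level of the 10 skeletal muscle markers, *smyd1a* and *smyd1b* among them, was 5450 and 17085 in control males and 6363 to 15055 in EM-males, an overlap. In females the same sum was 14318 and 16812 in controls and 10849 to 16427 under EM. The part of muscle tissue in these values was not tested. The gene *FAM184A* (ENSDARG00000002635) was 2.61-fold higher in EM-males (4.16-fold against control replicate 2 alone), from 757 and 346 to between 786 and 2136, and 2.11-fold lower in EM-females, from 15.1 and 20.4 to between 4.66 and 10.8. Also FQ378018.1 and si:ch211-198k9.6, which have only clone names, were higher in EM-males (2.86-fold and 3.76-fold). In females FQ378018.1 had 4.78 and 4.25 in controls and at most 1.58 under EM, and si:ch211-198k9.6 had 10.4 and 8.50 and at most 6.32. The female side of *smyd1a* and FQ378018.1 thus rested on few reads. The exonuclease gene *isg20* had 70.9 and 551 in control females against 1.58 to 70.3 in EM-females, and 0 and 0.693 in control males against 2.23 to 354 in EM-males. The wide spread of *isg20* within groups gave its product term of -11.59 an SE of 3.34.

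Other genes stood apart in the ovary only. The sphingomyelinase gene *smpd4* (ENSDARG00000020730), whose product releases ceramide from sphingomyelin, had 1611 and 1002 normalized counts in control females and 199 to 366 in EM-females. It fell by 2.17 on the log2 scale (SE 0.274, adjusted p = 0.00586 for the EM effect in females), a 4.48-fold lower level. In males the controls had 393 and 429 and the EM-fish 341 to 735, an overlap, with an effect of 0.32 ± 0.31. The product term of *smpd4* was -2.50 ± 0.44 (adjusted p = 0.207) and stayed between -2.79 and -2.12 without any single fish. The EM-females came to lie below both control males and overlapped only the lowest of the EM-males.

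With *smpd4*, 2 more genes passed the threshold for the EM effect in females. The count of called genes was 1 higher (0.00452% of genes) and 2 lower (0.00905%). The clone-named gene si:cabz01069013.3 (ENSDARG00000088367) was at 0.797 and 0 in control females and at 374 to 825 in EM-females, at least 237-fold higher, while males had 26.7 and 97.0 in controls and 13.4 to 207 under EM. Its product term of 9.72 ± 1.51 had the lowest unadjusted p of all named genes (7.55e-06, adjusted p = 0.144). The other called gene was *vtg6*, given below. In males 1 gene was called, the clone-named si:dkey-269o24.1, lower in EM-males (0.00452% of genes). It had 334 and 73.5 in control males, 0 to 2.17 in EM-males and 0 to 0.599 in females, at least 45.1-fold lower in EM-males.

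The insulin receptor substrate gene *irs2b*, an adaptor of insulin and growth factor receptors, had 0 and 1.70 normalized counts in control females and 7.79 to 48.5 in EM-females. The level was at least 10.7-fold higher, while EM-males (50.9 to 109) overlapped their controls (115 and 89.4). The product term was 5.14 ± 1.06 (adjusted p = 0.279). The gene *hs1bp3* was at 0 in both control females and at 1.2 to 6.81 in EM-females, with overlap in males. *OLFML3* (ENSDARG00000062171), for a secreted matrix protein, had 0.797 and 33.1 in control females and at most 0.619 in EM-females, so that its term of -6.95 rested on 1 control and moved to -2.69 without it.

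Further genes stood apart mainly in the testis. The gene *sgsh* (ENSDARG00000032087) encodes the lysosomal sulfamidase that degrades heparan sulfate, and the control males had 650 and 502 normalized counts against 1475 to 2955 in EM-males. That is a 3.65-fold higher level, with each EM-male more than both controls. In females the controls had 171 and 215 and the EM-fish 126 to 227. The product term of *sgsh* was -1.94 ± 0.38 (unadjusted p = 1.08e-04, adjusted p = 0.266).

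The spindle pole gene *aspm* (ENSDARG00000103754), used in dividing cells, was 11-fold higher in EM-males (7.15-fold and 23.8-fold against each control alone), from 187 and 56.1 to between 488 and 1961, with overlap in females (461 and 813 in controls, 176 to 786 under EM). Its product term was -3.72 ± 0.81 (adjusted p = 0.279). The gene *gca*, for the calcium-binding protein grancalcin that is known from blood phagocytes, was 4.63-fold lower in EM-males, from 1305 and 665 to between 133 and 312. The summed level of 11 immune markers was 4238 and 9778 in control males and 1377 to 11374 in EM-males, an overlap. Most of that sum in the control males was *cd74a*, with 3695 and 8163. Of the 11 markers, all EM-males lay below both controls in 1 (*mpeg1.2*) and above both in 1. Over all 22106 genes tested, they lay below in 671 and above in 1172. The part of immune cells in the *gca* values was not tested. The sodium pump gene *atp1a3b* instead overlapped in males, with 1527 and 180 in controls against 112 to 212 in EM-males. In females it had 3.98 and 7.65 in controls and 8.98 to 36.3 under EM, without overlap. Its term of 4.47 ± 0.94 fell to 2.42 without control male replicate 1, the library with the highest sum of pancreas markers.

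**Figure D3:**
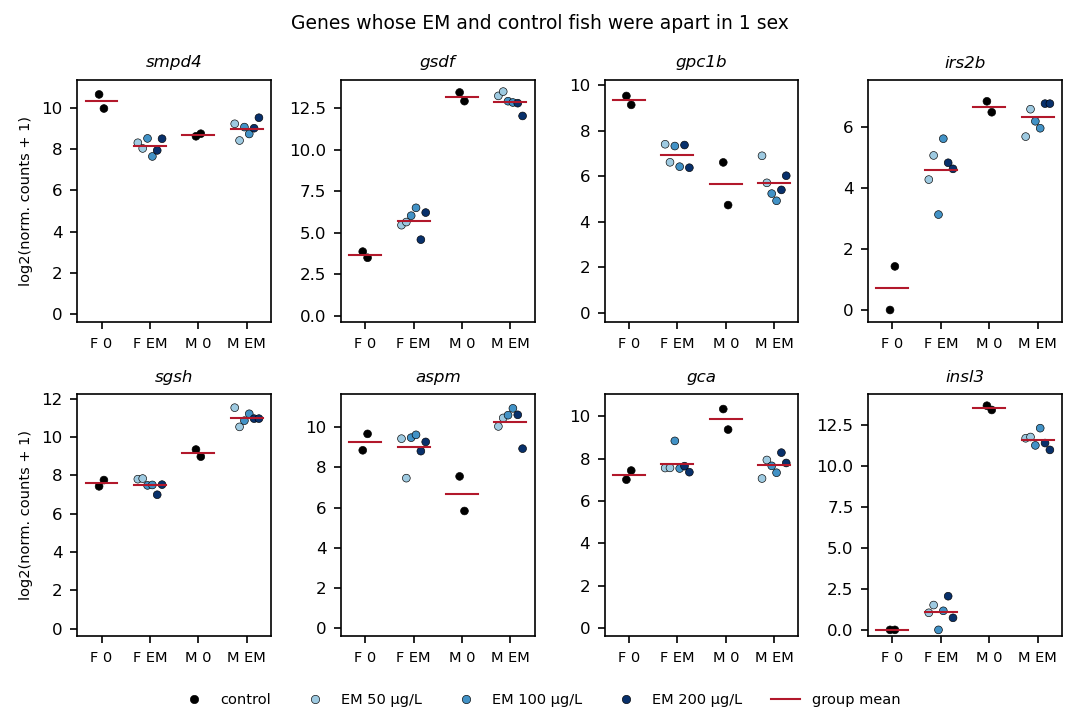
Normalized counts on a log2(value + 1) scale in each fish for 8 genes, arranged and coloured by group and EM concentration with red lines for group means. In *smpd4*, *gsdf*, *gpc1b* and *irs2b* (top) the EM-females lie apart from their controls while the males overlap, and in *sgsh*, *aspm*, *gca* and *insl3* (bottom) the EM-males lie apart while the females overlap.

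All 8 vitellogenin genes had a negative product term. In 7 of the 8 the unadjusted p was under 0.05 (3.97% of all genes had such a p with a negative term), and 0 passed the adjusted threshold. The median term was -6.05 (-5.55 with groups under the floor set to the floor), against 0.03 over all genes. The median EM effect was -4.98 in females and 1.13 in males. The *vtg6* gene (ENSDARG00000016825) had 143 and 11.9 normalized counts in control females and 0 to 1.33 in EM-females, and it fell by 6.73 on the log2 scale (SE 0.843, adjusted p = 0.00586 for the EM effect in females), at least 40.4-fold. The males overlapped, with 37.4 and 32.6 in controls and 23.9 to 50.9 under EM. The product term of *vtg6* was -6.81 ± 1.34 (adjusted p = 0.266).

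The *vtg2* gene separated in both sexes. The control females had 94.0 and 8.50, the EM-females 0 to 3.73, the control males 2.67 and 4.16 and the EM-males 4.26 to 24.8. The ovary level was 24.4-fold lower (4.04-fold against control replicate 2 alone) and the testis level 3.94-fold higher under EM (3.24-fold against replicate 2 alone). The male side of *vtg2* rested on few reads, and its lowest EM-male (4.26) stood next to the higher control (4.16). The product term was -6.40 ± 1.65 (adjusted p = 0.422). For *vtg3*, *vtg4* and *vtg7* the product terms were -5.69 ± 1.53, -6.54 ± 1.80 and -4.52 ± 1.57. The *vtg7* gene had an EM effect of -6.27 in females and -1.75 in males on the log2 scale. Its control males had 206 and 27.0 against a mean of 33.4 in EM-males. The negative male effect thus rested on control male replicate 1, and against replicate 2 alone the EM-males were 1.24-fold higher. The most abundant member, *vtg1*, chosen after its values were seen, had 2243 and 19.5 in control females, 0 to 68.9 in EM-females, 5.35 and 11.1 in control males and 27.1 to 760 in EM-males.

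The size of these terms depended on 1 ovary. Summed over the 8 genes, control female replicate 1 had 3477 normalized counts and replicate 2 had 76.5, against 19.6 to 105 in EM-females. Without replicate 1 the product terms were -0.74 for *vtg3*, -0.86 for *vtg7*, -1.63 for *vtg4*, -3.84 for *vtg2* and -4.13 for *vtg6*. Liver is the known source of vitellogenin, and 6 other liver markers summed to 613 in control female replicate 1, to 18.7 in replicate 2 and to 27.3 to 192 in EM-females, that is, the fish with most vitellogenin RNA also had the highest sum of other liver markers among females. In males the same 6 markers summed to 11628 and 1401 in controls and to 423 to 19408 under EM, while the 8 vitellogenins summed to 420 and 122 and to 250 to 1134. The part of liver RNA in the vitellogenin terms was not tested. Several vitellogenin genes are near-identical copies, and reads that map to more than 1 place were not counted, so levels of single members are uncertain.

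**Figure D4:**
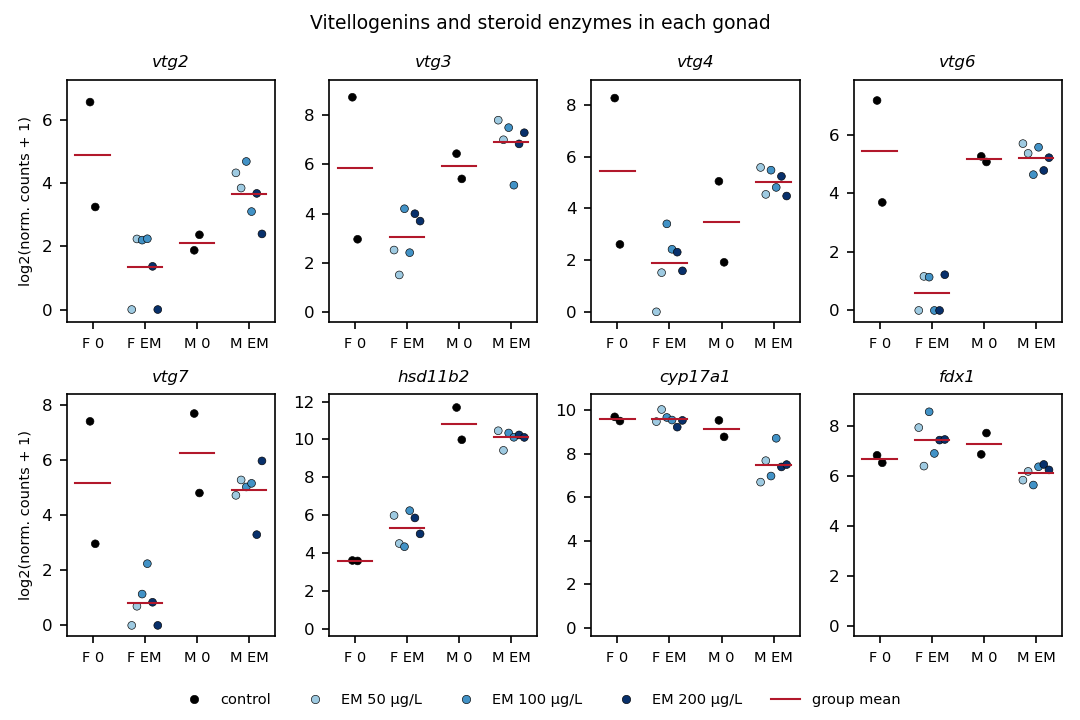
Normalized counts on a log2(value + 1) scale in each fish for 5 vitellogenins and 3 genes of steroid synthesis, arranged and coloured by group and EM concentration with red lines for group means. The 2 control females lie far apart in each of the 5 vitellogenins, and the EM-females lie below both in *vtg2*, *vtg6* and *vtg7*.

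Of the 26 genes of steroid synthesis and conversion that were tested, 5 had an unadjusted p under 0.05 with a positive term and 1 with a negative term, beside 3.63% and 3.97% of all genes, and 0 passed the adjusted threshold. The median term was 0.26 (0.14 with the floor). The gene *hsd11b2* (ENSDARG00000001975) encodes the dehydrogenase that inactivates cortisol and, in fish, takes part in making 11-ketotestosterone, the main androgen. The control females had 11.2 and 11 normalized counts, and the EM-females had from 19.2 to 74.6 with a median of 44.1. The control males had 3291 and 1010, and the EM-males had from 685 to 1405 with a median of 1156. The EM-females were apart from their controls and the males overlapped, with a product term of 2.85 ± 0.73 (unadjusted p = 0.00116, adjusted p = 0.422).

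The *cyp17a1* gene, for the enzyme that leads from progestogens to androgens, was 2.95-fold lower in EM-males, from 735 and 434 to between 102 and 415, and differed little in females (822 and 719 in controls, 592 to 1039 under EM). Its product term was 1.53 ± 0.57. The genes *fdx1* and *fdxr* encode ferredoxin and its reductase, which pass electrons to mitochondrial P450 enzymes. In EM-males *fdx1* was at 48.7 to 86.8 against 115 and 208 in controls, and in EM-females at 82.9 to 375 against 112 and 90.9 (product term 2.2 ± 0.69). The *fdxr* gene had 29.8 to 49.1 in EM-males against 110 and 92.9 in controls, with a product term of 1.32 ± 0.58. Both *fdxr* and *hsd17b1* were taken up after their values were seen. The estrone-reducing enzyme gene *hsd17b1* was at 1.59 and 2.55 in control females and at 12.6 to 26.6 in EM-females, with a term of 2.08 ± 0.88. The control females of *hsd17b1* thus rested on few reads. Its rise in females was larger than the term, so the fitted EM effect in males was upward as well.

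The direct target of EM, *cyp19a1a*, was too uneven among EM-females and too low in the other groups for a comparison of the sexes. It had 3.98 and 3.40 in control females, 1.2 to 111 in EM-females, 2.67 and 0 in control males and 0 to 17.8 in EM-males. The mean of EM-females, 32.1, was 8.06-fold and 9.45-fold higher than each control alone, but their lowest value was below both controls. The product term of 0.32 had an unadjusted p of 0.972 (edgeR).

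Among 10 steroid and gonadotropin receptor genes tested, 9 had a positive term (median 0.75, or 0.58 with the floor), and 1 had an unadjusted p under 0.05, beside 7.60% of all genes. This was *pgrmc1*, a membrane-associated progesterone receptor component, which was 1.43-fold higher in EM-females and 1.90-fold lower in EM-males with overlap in both sexes (product term 1.42 ± 0.44). The membrane progestin receptor gene *paqr5a* had 53.4 and 59.5 in control females and 66.5 to 106 in EM-females. Its males overlapped (2.67 and 26.3 against 4.26 to 24.8), and its product term of 1.13 ± 0.91 changed sign to -1.55 without control male replicate 2.

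Of 16 genes for signals and regulators of the gonadal somatic cells, 4 had an unadjusted p under 0.05 with a positive term and 1 with a negative one, beside 3.63% and 3.97% of all genes. In 9 of the 16 a group was at the floor, the median term was 1.03 (0.36 with the floor), and 0 passed the adjusted threshold. The gene *gsdf* (ENSDARG00000075301) encodes gonadal soma-derived factor, a growth factor of Sertoli and granulosa cells. The control females had 13.5 and 10.2 normalized counts, and the EM-females had from 22.9 to 89.5 with a median of 56.5, a 4.79-fold higher level. Males were at 11275 and 7840 in controls and at 4222 to 11694 under EM, an overlap, and the product term of *gsdf* was 2.49 ± 0.61 (unadjusted p = 8.48e-04, adjusted p = 0.398). The 7 testis markers, *gsdf* among them, summed to 742 and 773 in control females and to 746 to 1386 in EM-females.

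In the testis the Leydig cell hormone gene *insl3* (ENSDARG00000035862) was 3.79-fold lower in EM-males, from 13230 and 11037 to between 2036 and 5114. It was at 0 in control females and at 0 to 3.16 in EM-females, so that its product term of 5.69 ± 1.47 had next to no reads on the female side. The inhibin alpha gene *inha*, a subunit of the hormone that restrains follicle-stimulating hormone, was 3.84-fold lower in EM-males, from 98.9 and 123 to between 14.9 and 42.6. In females it had 1.59 and 0 in controls and 1.80 to 10.5 under EM. The Sertoli hormone gene *amh* was 2.12-fold lower in EM-males, from 2754 and 1850 to between 341 and 1743, and at no more than 4.19 in females (product term 1.83 ± 1.05). The testis marker sum, of which *insl3*, *amh* and *gsdf* are part, was 26808 and 30571 in control males and 11104 to 22098 in EM-males. Its members did not move as one: *insl3* and *amh* were lower in all EM-males, *gsdf* overlapped, and the axoneme gene *rsph4a* had 1663 and 3202 in control males and 2999 to 3904 in EM-males. The term of *wt1b*, a regulator of gonad formation, was 3.99 ± 1.33, yet EM-fish lay above controls in both sexes.

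Of 33 germ cell and oocyte genes tested, 0 had an unadjusted p under 0.05 with a positive term and 2 with a negative one, beside 3.63% and 3.97% of all genes, with a median of -0.26 (-0.17 with the floor). All EM-females lay above their controls in 7 of the 33 and below in 3, and all EM-males lay above theirs in 2 and below in 0. Over all 22106 genes tested these counts were 1557, 1246, 1172 and 671. The oocyte importin gene *kpna7* overlapped in females (14311 and 11805 in controls, 10916 to 12346 under EM) and was 3.66-fold higher in EM-males (2.1-fold against control replicate 1 alone), from 37.4 and 5.54 to between 40.1 and 130. Its product term was -2.31 ± 0.65. The pluripotency factor gene *pou5f3* had 13.4 and 9.01 in control males and 8.52 to 149 in EM-males, with overlap in both sexes. The germ cell helicase gene *ddx4* had a term of 0.82 ± 0.50 and the oocyte growth factor gene *gdf9* one of 0.55 ± 0.76, which changed sign to -1.65 without control male replicate 2.

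Of 14 zona pellucida genes tested, which encode the egg coat, 12 had a negative term, beside 10744 of 22106 over all genes. The median was -0.76 (-0.57 with the floor), and 1 had an unadjusted p under 0.05, beside 7.60% of all genes. This was *zp2.3*, at 0 in both control males and at 0 to 5.88 in EM-males, and at 559 to 1372 in EM-females against 929 and 791. No zona gene separated in either sex. Of all 22106 genes tested, 1557 were higher and 1246 lower in all EM-females, and 1172 higher and 671 lower in all EM-males.

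Of 35 DNA replication genes tested, 2 had an unadjusted p under 0.05 with a positive term and 1 with a negative one (median 0.25, or 0.19 with the floor), close to the 7.60% of all genes. The maternal helicase subunit gene *mcm6l* was 5.84-fold higher in EM-males, from 18.7 and 18.7 to between 33.5 and 204, and at 417 to 3279 in EM-females against 3126 and 3218 (product term -3.40 ± 0.90). The polymerase gene *pold1* had the opposite term, 1.37 ± 0.43, with overlap in both sexes. Of 21 clock genes tested, 1 had an unadjusted p under 0.05, the photolyase relative *cry-dash* (product term 0.66 ± 0.31), below that share, and the median was 0.30 (0.20 with the floor).

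Genes of endoplasmic reticulum folding and stress had 22 positive terms among 25 tested, against 11362 of 22106 over all genes. In 4 the unadjusted p was under 0.05, all positive (3.63% over all genes), and the median was 0.43 (0.42 with the floor). The disulfide isomerase gene *pdia4* had 671 and 696 in control males and 324 to 531 in EM-males, with overlap in females (product term 0.74 ± 0.28). The secreted growth factor gene *mydgf* was at 112 and 274 in control females and at 325 to 544 in EM-females (product term 1.62 ± 0.52). The cochaperone gene *dnajb9a* was 4.87-fold higher in EM-females, from 7.17 and 10.2 to between 22.2 and 69.2, but its term of 3.10 turned to -1.93 without control male replicate 2. The isomerase gene *pdia2*, which is known as a pancreatic protein, had 4724 in control male replicate 1 and 173 in replicate 2, the same order as the pancreas markers.

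Of 32 extracellular matrix genes tested, 5 had an unadjusted p under 0.05 with a positive term and 3 with a negative one, beside 3.63% and 3.97% of all genes, and the median was 0.85 (0.89 with the floor). Beside *mmp2*, the gene *mmp14a*, whose membrane-bound product activates MMP2, had 7.17 and 12.7 in control females and 19.8 to 38.5 in EM-females. It was 1.98-fold lower in EM-males with overlap (1.1-fold against control replicate 2 alone), and its product term was 2.16 ± 0.64. The laminin chain gene *lamc1* was 2.57-fold lower in EM-males only, from 396 and 247 to between 69.9 and 211 (product term 1.57 ± 0.48). In the other direction the heparan sulfate proteoglycan gene *gpc1b* was 5.14-fold lower in EM-females, from 732 and 558 to between 81.8 and 168, with overlap in males (product term -2.34 ± 0.76).

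Among 21 lysosomal genes tested, 5 had an unadjusted p under 0.05 with a positive term and 1, *sgsh*, with a negative one, beside 3.63% and 3.97% of all genes (median 0.75, or 0.74 with the floor). The acid phosphatase gene *acp2* separated in both sexes, with 237 and 257 in control females, 263 to 336 in EM-females, 85.6 and 87.3 in control males and 34.7 to 49.1 in EM-males. Its product term was 1.28 ± 0.36. The galactosylceramidase gene *galca* was 2.00-fold lower in EM-males, from 136 and 133 to between 25.4 and 106 (product term 1.21 ± 0.54). The hexosaminidase subunit gene *hexb* overlapped in both sexes (product term 2.56 ± 1.01). Of 17 actin ruffling genes tested, 2 had an unadjusted p under 0.05, both positive (3.63% over all genes): *wasf2*, an activator of actin branching, with 0.92 ± 0.32, and *cttn*, which steadies branched actin, with 0.77 ± 0.28. The median of that list was 0.55 (0.50 with the floor).

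**Figure D5:**
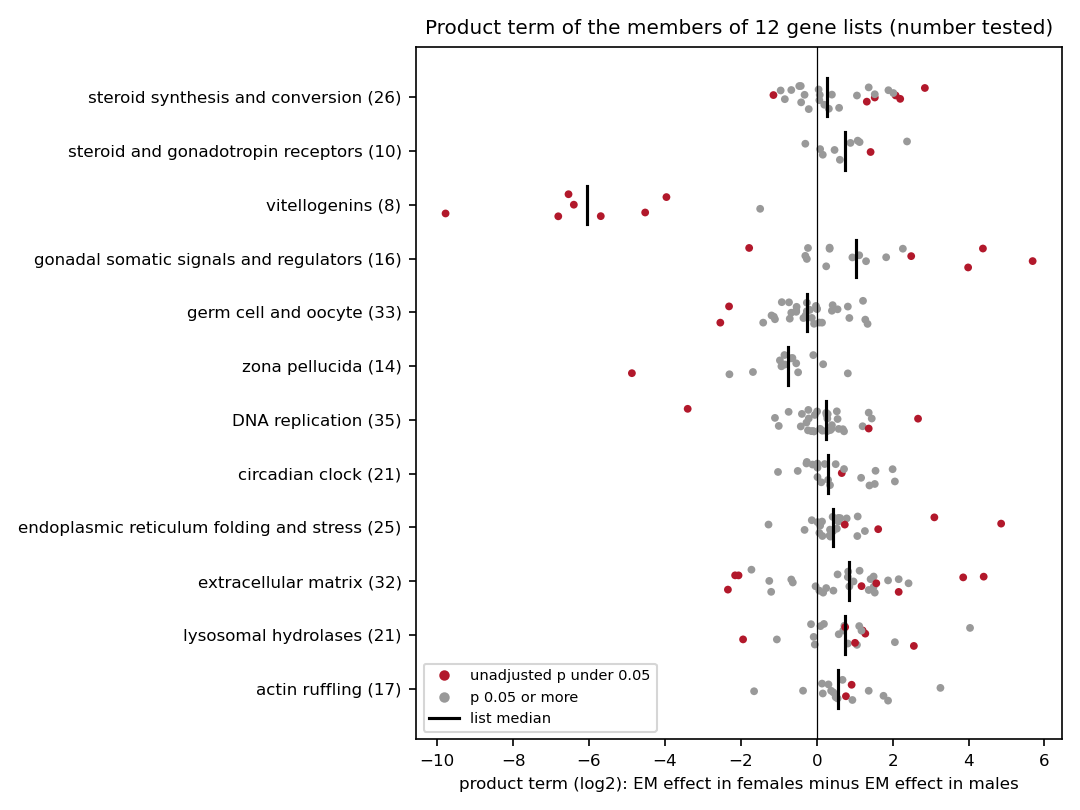
Product term (x axis, log2, EM effect in females minus EM effect in males) of each tested member of 12 gene lists, with members of unadjusted p under 0.05 in red, the others in grey and the list median as a black bar. All 8 vitellogenins lie below 0, and in the list of endoplasmic reticulum genes 22 of 25 lie above it.

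The product terms were also computed at each concentration alone, from 2 EM-fish and 2 controls of each sex. The concentrations share the control fish, so their values are given side by side. At 50, 100 and 200 μg/L the term of *mmp2* was 4.77, 3.41 and 3.63, that of *ypel5* 3.51, 3.07 and 3.06, and that of *cyp2aa9* -5.32, -5.66 and -4.42. It was -2.24, -2.37 and -2.67 for *smpd4* and -1.60, -1.92 and -2.08 for *sgsh*. The term of *col4a3bpb* was 3.00, 2.61 and 1.97, and that of *smyd1a* was -3.24, -3.84 and -5.00. All of these kept their direction at each concentration. For *mmp2*, *ypel5*, *cyp2aa9*, *col4a3bpb* and *smyd1a* this followed from the separation of all their fish in opposite directions. It is therefore no sign of agreement between concentrations. The genes *smpd4* and *sgsh* were named for a low product p from the same fish. The steroid enzyme gene *hsd11b2* had 3.08, 2.95 and 2.89, and *gsdf* had 1.91, 3.06 and 2.78. At a single concentration, 0 genes passed the adjusted threshold at 50 or 100 μg/L and 1 did at 200 μg/L.

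Without the 4 libraries of high pancreas marker sums, 2 EM100 males and 1 EM50 male were set against 1 control male. That control still had a pancreas marker sum of 3964, against 731 to 1058 in the EM-males kept. The product term was then 3.71 for *mmp2*, 3.24 for *ypel5*, 2.85 for *col4a3bpb*, 2.03 for *cd81a* and -5.80 for *cyp2aa9*. It was -2.16 for *sgsh*, -4.77 for *aspm*, 2.76 for *gca*, -2.31 for *smpd4* and 2.3 for *gsdf*. All of these had the direction found with every library. For *mmp2*, *ypel5*, *col4a3bpb*, *cd81a* and *cyp2aa9* this followed from the separation of their fish in opposite directions. The terms of *myom1a*, *ttn.1*, *acta2*, *mylka*, *krt94*, *krt8* and *cyp19a1a* changed sign. The term of *hsd11b2* was 1.80 in place of 2.85 and that of *atp1a3b* 2.79 in place of 4.47.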

How the data were processed

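Gonad RNA of 16 adult zebrafish was sequenced by the authors from stranded polyA+ libraries. According to the study's methods, reads were mapped with HISAT2 2.0.5 to GRCz11 (Ensembl 95), duplicates were removed with SAMtools 1.5, and reads on the reverse strand were counted per gene with HTSeq 0.9.1. The deposited counts are whole reads for 32520 genes, and 5 tally rows were dropped. The counts of 2 libraries stood together in 1 cell of the first gene and were split. The second deposited table holds normalized signal for 28353 genes, each count divided by a DESeq2 size factor of the authors (0.374 to 1.89), which was recomputed to within 5.57e-08%. Reads tallied as not unique were 24.8% to 36.7% of a library. Names were found for 29270 genes.

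The counts of all 16 libraries were fitted with edgeR 4.0.16 in R 4.3.3 (filterByExpr, TMM, robust quasi-likelihood test) with sex, EM and their product, all EM concentrations together, and Benjamini-Hochberg adjustment over 22106 genes at 0.05. Each SE given for an edgeR effect is its absolute log2 value divided by the square root of the F statistic of its test. It was thus derived from the test and not estimated directly, and it is least reliable where a group is near 0 counts. DESeq2 1.42.0 and limma 3.58.1 were alternatives, as were other filters, size factors, concentrations and each fish left out. The product term was tried on simulated counts of 22106 genes with edgeR, DESeq2 and limma-voom. In 200 of these genes a term of 2 on the log2 scale, up or down, was put in. At the adjusted threshold edgeR found 13 of them with 0 false calls, DESeq2 79 with 27 false calls and limma-voom 9 with 0. Other steps were not tested in this way. Fish of a treatment shared 1 tank. With the concentrations pooled, the p-values measure the spread between fish within tanks together with that between the EM tanks. The control fish came from 1 tank, so no spread between control tanks enters. A group with at most 3 counts in every library was taken to be at the floor, and folds against it are lower bounds that cover counting error only.

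The compared features, the gene lists (12 pathway and 9 marker lists) and the rule for named genes were chosen with earlier results of these data known, so they are no independent support. Named genes are the 8 lowest product p in each direction among genes with a symbol and a mean of at least 20 normalized counts in a group, up to 8 genes whose fish separated in opposite directions, 5 DESeq2 calls in each direction, up to 4 members of each list, genes the study names, and up to 2 clone-named genes in each direction. A planned search of promoters was not run, because no genome sequence was used here. Null controls and juveniles were not analysed here. A gene selected by the rule is not reported here.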

Additional observations from a re-analysis of the deposited data

Results flagged for a closer look

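In 6 of the 68 groups of 6 EM-fish looked at (36 named genes, both sexes), 1 fish stood far from the others by Dixon's criterion, which chance alone meets in about 1 group in 20. EM100 female replicate 1 had 459 normalized counts of *gca*, EM200 male replicate 2 had 179 of *hs1bp3*, and EM50 female replicate 1 had 70.3 and EM100 male replicate 2 had 354 of *isg20*. EM50 male replicate 1 had 17.8 of *cyp19a1a*, and EM100 female replicate 2 had 3.73 of *vtg7*.

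In 17 of the named genes all EM-females lay on one side of their controls and all EM-males on the other, although 0 of them passed the adjusted threshold for the difference (edgeR). The background of such genes was 0.638% of all genes tested. Positive product terms were found for *mmp2* (3.86), *ifit8* (6.73), *ypel5* (3.10), *col4a3bpb* (2.43), *cd81a* (2.54), *ssr1* (1.33), *eif3s10* (1.11), *stt3a* (1.16), *CIR1* (2.95) and zgc:171967 (1.89). Negative terms were found for *smyd1a* (-3.91), *cyp2aa9* (-5.17), *FAM184A* (-2.50), *isg20* (-11.59), *vtg2* (-6.40), FQ378018.1 (-3.82) and si:ch211-198k9.6 (-3.26). Up to 8 of these were named because they separated, so their number is no result.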

How the results depend on the processing

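With 2 controls in each sex, the product counts depended on single fish and on the model. Positive and negative product calls at the adjusted threshold, 0 and 0, became 50 and 59 with DESeq2, 43 and 18 without the 4 pancreas-rich male libraries (chosen after seeing the data), 2 and 0 with limma-voom, 1 and 0 with each concentration as its own group and 1 and 0 at 200 μg/L alone. With the replicate block they remained 0 and 0. Replicate numbers of different groups belong to different animals, so the sign of a correlation between groups has no meaning. Of 28 pairs of groups, 3 correlated above 0.1. Pairs of male groups had r of -0.293, -0.253, -0.198, 0.141, 0.219 and 0.299. All pairs with a female group lay between -0.083 and 0.047. Leaving out 1 fish gave 0 to 4 and 0 to 1; the highest counts came without control female replicate 1 (*ndrg3a*, *fam53b*, zgc:162945 and *asah1a* higher, *OLFML3* lower). At an unadjusted p under 0.05, 803 positive and 877 negative genes became 364 and 407 at 200 μg/L, with 564 negative at 50 and 572 at 100 μg/L, 1688 positive without the pancreas-rich libraries, and 596 to 1493 and 599 to 1312 with 1 fish left out.

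In females, 1 higher and 2 lower calls became 38 and 26 with DESeq2, 14 and 25 with limma-voom, 2 and 1 without the pancreas-rich libraries, 0 and 0 at 50 and at 100 μg/L, with 0 lower at 200 μg/L and with each concentration as its own group, 4 lower with no filter, and 1 to 6 and 2 to 9 without 1 fish. In males, 0 higher and 1 lower became 153 and 86 with DESeq2, 1 and 14 with limma-voom, 1 and 7 with no filter, 29 and 63 without the pancreas-rich libraries, 2 lower with the replicate block, 0 lower at each concentration alone, with each concentration as its own group and with 10 counts in 8 libraries, and 0 to 10 and 1 to 33 without 1 fish. The largest of these ranges came without EM200 male replicate 2 (10 and 33) and control male replicate 2 (8 and 28).

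Leaving out a control leaves 1 fish to separate from, which raises the counts of separated genes by construction. Over single fish left out, females only ranged from 1004 to 3287 higher and 779 to 3615 lower, males only from 817 to 3605 and 468 to 3447, both sexes from 70 to 279 and 24 to 232, EM-females above with EM-males below from 66 to 320, and the reverse from 86 to 260. Without the pancreas-rich libraries these counts were 651, 541, 5732, 5030, 335, 228, 571 and 477.

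Of 2747 values of 102 named genes under 27 alternatives, 2671 kept their direction and side of the threshold, 42 passed it and 34 in 16 genes changed sign. Without the pancreas-rich libraries the terms were -0.24 for *myom1a*, -1.56 for *ttn.1*, -0.07 for *acta2*, -0.37 for *mylka*, -0.04 for *krt94*, -0.91 for *krt8* and -3.02 for *cyp19a1a*. With limma-voom they were -0.56 for *ttn.1*, -0.06 for *acta2*, -0.08 for *mylka* and -0.49 for *cyp19a1a*. At 50 μg/L *epb41a* had 0.83, *ela2l* -2.46 and *cyp19a1a* -0.58, at 100 μg/L *epb41a* had 0.21, and at 200 μg/L *zp3b* had 0.07 and *acta2* -0.43. For *cyp19a1a* the replicate block gave -0.26 and each concentration as its own group -0.24. With 1 fish left out, terms ranged from -1.55 to 1.89 for *paqr5a*, -1.93 to 3.79 for *dnajb9a*, -1.65 to 1.23 for *gdf9*, -1.84 to 0.43 for *epb41a*, -2.41 to 2.94 for *rag1*, -0.80 to 2.31 for *myom1a*, -1.51 to 1.83 for *ttn.1*, -0.07 to 1.74 for *myh11a*, -1.02 to 1.24 for *acta2*, -0.76 to 0.87 for *mylka*, -1.48 to 2.36 for *prss1*, -0.52 to 2.49 for *krt94*, -1.50 to 2.07 for *krt8* and -2.44 to 1.97 for *cyp19a1a*. The causes were not tested.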

Other observations

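Of the marker lists of other tissues, none had a member past the adjusted threshold for the product term. At an unadjusted p under 0.05 there were 0 of 7 ovary, 3 of 7 testis, 0 of 3 blood, 1 of 11 immune, 2 of 10 skeletal muscle, 1 of 4 smooth muscle, 0 of 3 exocrine pancreas, 7 of 12 liver and 1 of 7 epithelium markers, beside 7.60% of all genes. The median terms were -0.18, 1.3, 1.51, 1.32, 0.69, 0.74, 3.53, -4.23 and 1.03 in this order. Of the 12 liver markers, 6 are vitellogenins.

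Among the epithelium markers, the keratin gene *krt91* had 9.56 and 7.65 normalized counts in control females and 18.6 to 69.9 in EM-females. In males it had 10337 and 891 in controls and 533 to 3800 under EM. Its term of 3.73 ± 1.11 fell to 1.27 without control male replicate 1, where the pancreas markers were also highest. The smooth muscle gene *cnn2*, a calponin, had 42.2 and 18.7 in control females and 53.3 to 86.0 in EM-females, with overlap in males (product term 1.71 ± 0.53). The macrophage pore gene *mpeg1.2* had 56.1 and 55.4 in control males and 8.92 to 27.7 in EM-males, and at most 11.8 in females (product term 4.53 ± 1.70).

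The axoneme gene *rsph4a*, a radial spoke component of sperm tails and cilia, had 78.1 in control female replicate 1, 3.40 in replicate 2 and 1.33 to 9.48 in EM-females. Its term of -3.71 moved to -0.17 without that first fish. The cytoskeletal linker gene *macf1a* had 472 and 435 in control females and 762 to 992 in EM-females, with overlap in males (1.87-fold higher in females, product term 0.84 ± 0.36).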
